A study of Mus musculus with 4 samples.

Results

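Neutrophil and monocyte chemokines were followed as 10 genes of the mouse 4T1-T breast cancer cell transcriptome: Cxcl1, Cxcl2, Cxcl3, Cxcl5, Cxcl10, Cxcl16, Ccl2, Ccl7, Ccl20 and Cx3cl1. All 10 were found by symbol among the 23481 genes of the deposited count table. The genes were chosen by family membership from a list drawn up when the fold changes between these same libraries were already known. Their fold changes and calls in this comparison are therefore a description and support nothing by themselves. The 4T1-T line derives from the mouse mammary carcinoma line 4T1. All libraries came from cells in which Asns, the gene for asparagine synthetase, had been silenced, and no unsilenced library was analysed here. There were 2 libraries (A and B) of cells grown in DMEM without asparagine and 2 (A and B) of cells grown in DMEM with asparagine. The sources used here do not state how the gene was silenced, whether the line is 1 clone, or how long the cells were grown.

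Chemokines are small secreted or membrane-tethered proteins that draw leukocytes along concentration gradients by engaging G protein-coupled receptors. Cxcl1, Cxcl2, Cxcl3 and Cxcl5 act on Cxcr2 and attract neutrophils. Ccl2 and Ccl7 act on Ccr2 and attract monocytes, Ccl20 acts on Ccr6, and the interferon-induced Cxcl10 acts on Cxcr3 of activated T cells. Cxcl16 and Cx3cl1 are made as transmembrane proteins that hold cells bearing Cxcr6 or Cx3cr1, and the proteases Adam10 and Adam17 release them. Many of these genes are induced through NF-kB by interleukin-1 and tumour necrosis factor. Tumours of the 4T1 line are known for the strong neutrophil response they raise in mice.

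Promoter sequence from RefSeq (build GRCm38.p6) was held for 6 of the 10 genes. The stretches below show the letters that 3 neighbouring neutrophil chemokine genes share in front of their starts, beside those of Cxcl10, a member from another stretch of the same chromosome. Each runs 5′ to 3′ on the gene's own strand from 120 to 41 bases upstream of the RefSeq start, and capitals mark matches to the NF-kB consensus on either strand.
Cxcl1: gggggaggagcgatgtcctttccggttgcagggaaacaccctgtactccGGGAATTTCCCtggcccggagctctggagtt
Cxcl2: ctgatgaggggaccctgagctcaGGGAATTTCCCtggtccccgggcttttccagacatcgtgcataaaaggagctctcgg
Cxcl3: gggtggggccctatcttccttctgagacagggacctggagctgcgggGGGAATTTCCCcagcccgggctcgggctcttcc
Cxcl10: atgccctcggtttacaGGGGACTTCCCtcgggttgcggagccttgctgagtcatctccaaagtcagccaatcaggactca
The stretches lie at chr5:90891125-90891204 (plus strand) for Cxcl1, chr5:90903779-90903858 (plus) for Cxcl2, chr5:90785981-90786060 (plus) for Cxcl3 and chr5:92348930-92349009 (minus) for Cxcl10.

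Cxcl1, Cxcl2 and Cxcl3 held the same match on the plus strand, GGGAATTTCC, at 71 to 62, 97 to 88 and 73 to 64 bases upstream. A match on the other strand, offset by a single base, overlapped each of them. These distances depend on the start used. The RefSeq start lay 28 bases downstream of the GENCODE M21 start for Cxcl2, against 4 for Cxcl1 and -2 for Cxcl3. Cxcl10 held GGGGACTTCC at 104 to 95 bases upstream, overlapped by GGGACTTCCC and by that stretch's match on the minus strand, GGGAAGTCCC, and a further match, GGGAAATTCC, at 159 to 150 bases. Ccl20 held GGGGTTTTCC on the minus strand at 80 to 71 bases. The 250 bases upstream of Cx3cl1 held no match, but its RefSeq start lies 171 bases inside the gene as GENCODE M21 draws it, so that window is not the region in front of the GENCODE start. Of all 32851 RefSeq promoter windows of 250 bases, 7.25% held the NF-kB consensus on either strand. Among the other motifs searched on both strands, the AP-1 motif TGANTCA was in front of Cxcl10 (74 to 68 bases, against 6.75% of all windows) and of none of the other 5. The interferon response core GAAANNGAA was also in front of Cxcl10 alone (213 to 205 bases, 7.13% of all windows), and the C/EBP motif TTNNGCAA (9.56% of all windows) was in none of the 6. The TATA motif TATAAA (12.4% of all windows) was in front of Cxcl3 (30 to 25 bases) and Cx3cl1 (6 to 1 bases). No match overlapped one of another motif. These matches describe letters only, since binding was not measured. For Cxcl5, Cxcl16, Ccl2 and Ccl7 no window was used here.

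Libraries A and B held 17977552 and 22581543 gene counts without asparagine, against 23867011 and 30260582 with it. Library A without asparagine stood apart. Reads outside annotated features were 56.6% of all its reads, against 46.3% to 49.3% in the other libraries, and the ribosomal precursor Rn45s took 3.53% of its gene counts, against 0.884% to 1.66%. Over all tested genes, library B without asparagine correlated less with library A of its own group (Spearman 0.9907) than with libraries A and B with asparagine (0.9924 and 0.9932). Libraries A and B also differed more from each other without asparagine than with it (chi-square of their counts per degree of freedom, 34.8 against 3.89). Values with library A without asparagine left out are therefore given beside the chemokine calls. Levels are given as CPM, counts scaled to a common library total by TMM. Asns had 75.0 and 89.2 CPM without asparagine, against 103 and 101 CPM with it, a log2 fold change of -0.31 (edgeR adjusted p = 0.235), and its silencing could not be checked without an unsilenced library. Of 8 epithelial markers all were read, with a summed level of 1003 to 1028 CPM without asparagine and 836 to 932 CPM with it. One of them was called, Epcam, at 65.2 and 58.9 CPM without asparagine, against 37.3 and 40.2 CPM with it (log2 fold change 0.68, edgeR adjusted p = 0.0368), and the part of this in the chemokine differences was not tested. The neutrophil markers were at or near 0, with Mpo and Ltf at 0 in every library and a list sum of at most 1.47 CPM, in library A without asparagine. Of 11 monocyte and macrophage markers, C1qa and C1qc were at 0 in every library and Lyz2 had 1 read in all. Their list sum was 16.4 CPM in each library without asparagine, against 14.4 and 15.01 CPM with it, most of it from Cd68, Mrc1 and Cd14. In such bulk RNA, more cells making a transcript and more transcript per cell cannot be told apart.

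Cells without asparagine had higher levels of 4 chemokine transcripts, Cxcl1, Cxcl5, Cxcl16 and Ccl2. Of the 10 genes, 7 passed the low-count filter and were tested, and these 4 were called higher (edgeR quasi-likelihood test, adjusted p threshold 0.05). None was called lower, though 1, Cx3cl1, had an unadjusted p under 0.05 in that direction, as had 9.48% of all tested genes, and was called by DESeq2 and not by limma-voom. Over all 12843 genes tested, 0.771% were called higher and 1.07% lower. As the members were listed with this contrast known, nothing is read from that difference. Both libraries without asparagine lay above both with it for 4 of the 7 tested members and below for 1, against 26.1% and 26.4% of all tested genes. The median log2 fold change was 0.91 over the 7 tested members and 0.01 over all tested genes. Cxcl2, Cxcl3 and Ccl20 had too few reads to be tested.

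**Figure D1:**
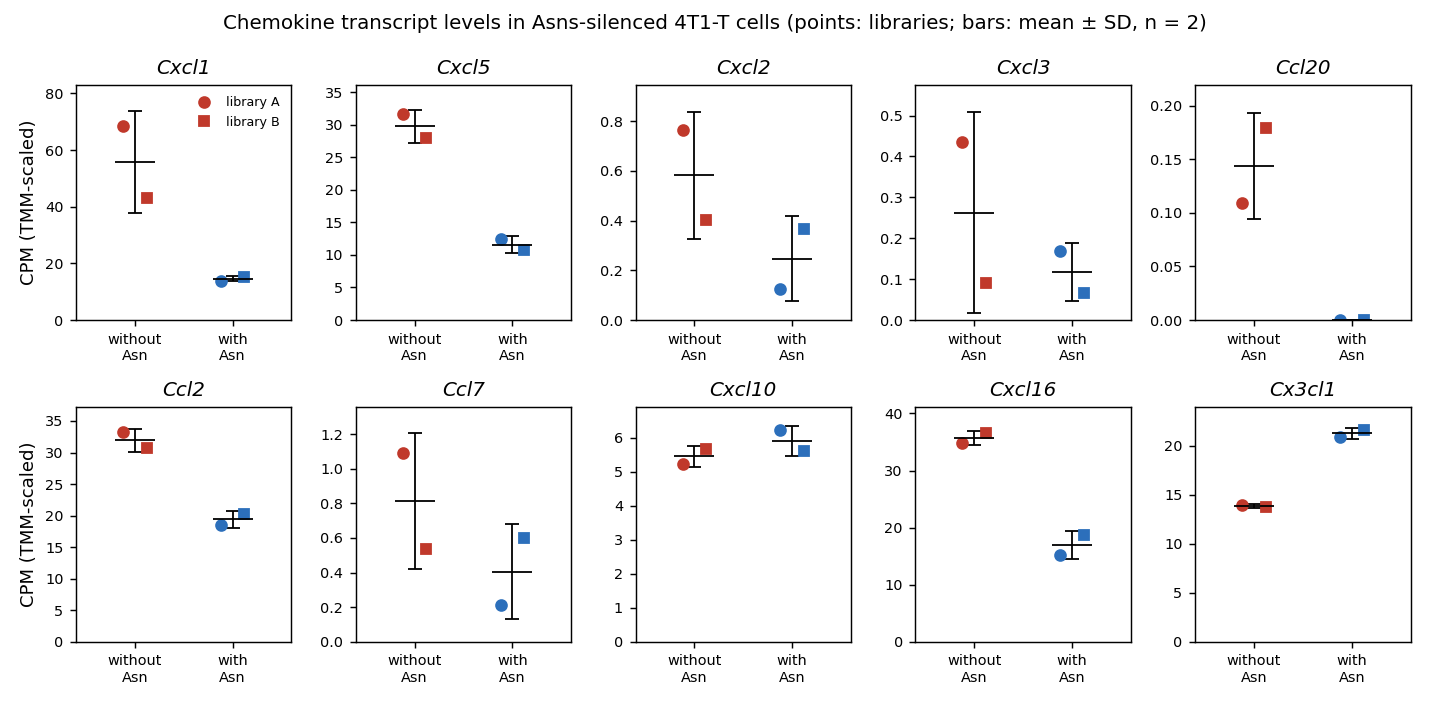
Level of each chemokine transcript (vertical axis, TMM-scaled CPM, from 0 in each panel) in cells without and with asparagine. Points are libraries A (circles) and B (squares), and horizontal bars with whiskers are the mean and SD of 2 libraries. Cxcl1, Cxcl5, Ccl2 and Cxcl16 were higher without asparagine in both libraries, Cx3cl1 was lower in both, and the groups of Cxcl10, Cxcl3 and Ccl7 overlapped. Cxcl2 and Ccl20 also lay higher in both libraries without asparagine, but had too few reads to be tested.

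Cxcl1, the mouse neutrophil chemokine also known as KC, showed the largest difference of the tested members. Its level was 68.6 CPM in library A and 43.0 CPM in library B without asparagine, against 13.95 CPM in library A and 15.2 CPM in library B with it. Both libraries without asparagine were well above both with it, but they also differed from each other, library A lying 59.5% above library B. Cxcl1 averaged 55.8 ± 18.1 CPM without and 14.6 ± 0.866 CPM with asparagine (SD, n = 2 each), and it rose 3.82-fold (log2 fold change 1.93 ± 0.22 SE, edgeR adjusted p = 0.0121). With library A of the asparagine-free cells left out the log2 fold change was 1.56, and with library B of these cells left out it was 2.23. Cxcl1 was the one member called higher with any of the 4 libraries left out. No stretch of 50 bases of its GENCODE transcripts was found in transcripts of another gene.

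Cxcl5, which also acts on Cxcr2 and is made mainly by epithelial cells, rose 2.57-fold. It had 31.6 and 27.9 CPM without asparagine, against 12.5 and 10.7 CPM with it. The libraries of each group lay close together and the groups were well apart. The log2 fold change was 1.36 ± 0.14 (SE, edgeR adjusted p = 0.00831), and 1.27 with library A of the asparagine-free cells left out. With library B of the asparagine-supplied cells left out it was 1.25 and no longer called (adjusted p = 0.0573).

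Cxcl2 and Cxcl3, the closest relatives of Cxcl1 among the members, were almost silent. Cxcl2 had 14 and 9 reads without asparagine, against 3 and 11 reads with it. Cxcl3 had 8 and 2 reads without asparagine, against 4 and 2 reads with it. Pooled over a group, Cxcl2 stood at 0.565 CPM without asparagine (95% exact Poisson interval 0.358 to 0.848) and at 0.260 CPM with it (0.142 to 0.437), intervals that cover counting error only and that overlap. With no filter on low counts, its log2 fold change was 1.14 ± 0.65 (SE, edgeR adjusted p = 0.387) and that of Cxcl3 was 1.11 ± 1.03 (adjusted p = 0.690). A difference in either gene was not detectable at this depth. Of the 50-base stretches of Cxcl2 transcripts, 5.84% also occur in transcripts of another gene, Cxcl3. The deposited counts keep a separate summary row for reads not aligned uniquely, so reads from such stretches may be missing from both genes.

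The shared NF-kB match in front of Cxcl1, Cxcl2 and Cxcl3 thus stood beside very different levels. Library by library, Cxcl1 had 89.9 and 107 times as many reads as Cxcl2 without asparagine, against 111 and 41.4 times with it. Cxcl1 and Cxcl2 lie 10.8 kb apart on chromosome 5, Cxcl1 from 90891241 to 90893115 and Cxcl2 from 90903871 to 90905938 (GENCODE M21, GRCm38, plus strand). Cxcl5 (90759360 to 90761624) and Cxcl3 (90786103 to 90789600) lie in the same cluster on the same strand. Between Cxcl5 and Cxcl3 lie Ppbp, a platelet chemokine gene with 13 and 26 reads without asparagine, against 13 and 12 reads with it, and Pf4, which had 1 read in all. Among these genes, reads therefore came nearly all from Cxcl1 and Cxcl5.

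Ccl2, the chief monocyte attractant, had 33.2 and 30.6 CPM without asparagine, against 18.5 and 20.3 CPM with it. The libraries within a group differed little beside the gap between groups. Ccl2 rose 1.64-fold (log2 fold change 0.72 ± 0.12 SE, edgeR adjusted p = 0.0384), and the log2 fold change was 0.66 with library A of the asparagine-free cells left out. Ccl2 was no longer called when either library with asparagine was left out, at 0.65 with A left out and 0.79 with B left out (adjusted p = 0.545 and 0.338).

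Ccl7, which shares the receptor Ccr2, had 20 and 12 reads without asparagine, against 5 and 18 reads with it. The groups overlapped, and the log2 fold change was 0.91 ± 0.59 (SE, edgeR adjusted p = 0.443). Its value rested on single libraries: it was 0.33 with library A of the asparagine-free cells left out, and 1.35 with library B of these cells left out, where it was called (adjusted p = 0.0430), as were 18.9% of all genes in that direction. It was 0.41 without library A with asparagine and 1.90 without library B with asparagine, neither of them called. Ccl2 and Ccl7 lie 8.3 kb apart on the plus strand of chromosome 11, from 82035571 to 82037453 and from 82045712 to 82047525. Ccl1, Ccl8, Ccl11 and Ccl12 in the same cluster had at most 1 read each over all libraries.

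Ccl20, which attracts cells bearing Ccr6, was read only without asparagine, with 2 and 4 reads in libraries A and B. It had 0 reads in both libraries with asparagine, which allows up to 0.126 CPM in library A and 0.100 CPM in library B (3 counts each). The levels without asparagine, 0.109 and 0.179 CPM, were of that size, so no fold change is given. The gene lies on chromosome 1 from 83116766 to 83119167 (plus strand).

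Cxcl10 differed little between the groups. It had 5.23 and 5.68 CPM without asparagine, against 6.22 and 5.60 CPM with it, and the groups overlapped. The log2 fold change was -0.11 ± 0.17 (SE, edgeR adjusted p = 0.762), and it lay between -0.19 and -0.04 with each library left out. Its neighbours on chromosome 5, Cxcl9 and Cxcl11, which are further Cxcr3 ligands, had 7 and 4 reads over all libraries. Cxcl10 lies from 92346638 to 92348889 on the minus strand, and 133 of its exon bases overlap exons of Art3 on the other strand, a gene with 6 to 10 reads in each library.

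Of the transmembrane chemokines, Cxcl16 was called and Cx3cl1 was not. Cxcl16 had 34.8 and 36.6 CPM without asparagine, against 15.2 and 18.6 CPM with it. Both libraries without asparagine were near one another and above both with it. Cxcl16 rose 2.11-fold (log2 fold change 1.07 ± 0.14 SE, edgeR adjusted p = 0.0178), with a log2 fold change of 1.10 with library A of the asparagine-free cells left out. The call was lost without library A with asparagine (0.94, adjusted p = 0.152) and without library B with asparagine (1.23, adjusted p = 0.0543). Cxcl16 lies on chromosome 11 from 70453983 to 70459984 (minus strand), and 552 of its 3021 exon bases overlap exons of Zmynd15 on the other strand. Zmynd15 had 36 and 33 reads without asparagine, against 18 and 20 reads with it, where Cxcl16 had 639 and 819 against 362 and 559.

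Cx3cl1, or fractalkine, was the one member with both libraries without asparagine below both with it. It had 13.95 and 13.7 CPM without asparagine, against 20.8 and 21.6 CPM with it. The libraries of a group agreed closely, library A lying 1.94% above library B without asparagine and 3.57% below it with asparagine. The log2 fold change was -0.62 ± 0.12 (SE), or 0.651-fold, and missed the threshold in edgeR (adjusted p = 0.0622). It passed with DESeq2 (adjusted p = 0.0429). It did not pass with limma-voom (adjusted p = 0.0646) or in edgeR with upper quartile scaling (adjusted p = 0.0901). Whether it passed with 1 library removed depended on the group of that library, while the size of the change hardly moved. The log2 fold change was -0.64 and -0.61 with asparagine-free library A or B removed. It was -0.65 and -0.60 with library A or B with asparagine removed. Cx3cl1 lies on chromosome 8 from 94772009 to 94782427 (plus strand), next to Ccl17 and Ccl22, which had 24 and 5 reads over all libraries.

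**Figure D2:**
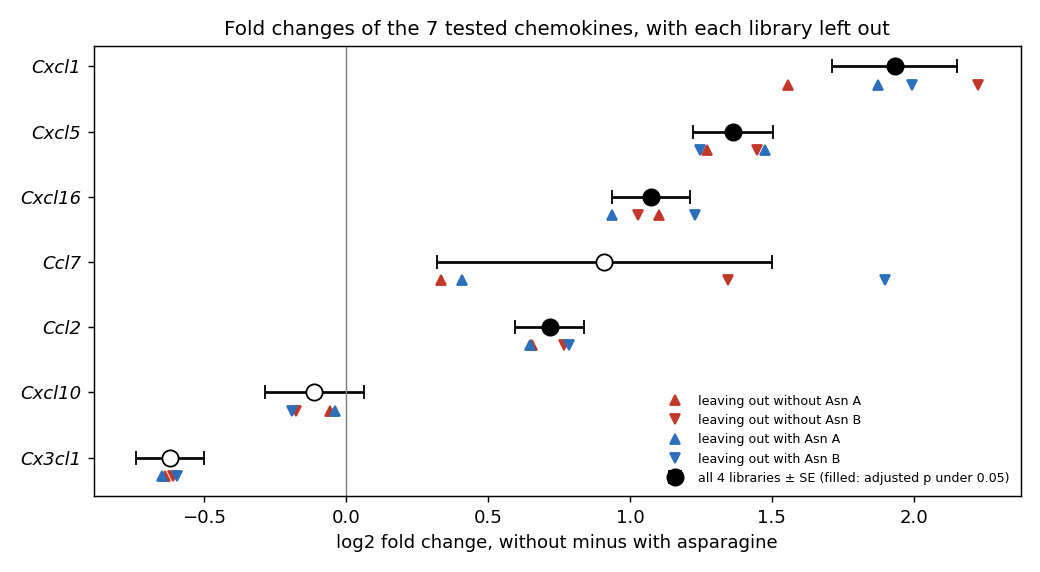
Log2 fold change, without minus with asparagine (horizontal axis), of the 7 tested chemokines. Large circles are the fit to all 4 libraries with its SE, filled where the adjusted p was under 0.05. Small triangles are fits with a single library left out. No triangle lies across 0 from its circle, and those of Ccl7 spread from 0.33 to 1.90.

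Levels per length of exon kept nearly the same order of members in the 2 groups, the means of Cxcl1 and Ccl2 changing places at the top. On this scale (CPM per kb of exon), Cxcl1 and Ccl2 led without asparagine, at 29.8 ± 9.65 and 28.04 ± 1.59, and their libraries overlapped, with Ccl2 above Cxcl1 in library B. Cxcl5 at 16.0 ± 1.38, Cxcl16 at 11.8 ± 0.422, Cx3cl1 at 3.52 ± 0.0479 and Cxcl10 at 2.42 ± 0.141 followed, with no overlap between neighbours. With asparagine, Ccl2 led alone at 17.0 ± 1.16, followed by Cxcl1 at 7.77 ± 0.462. Then came Cxcl5 at 6.22 ± 0.686, Cxcl16 at 5.61 ± 0.804 and Cx3cl1 at 5.403 ± 0.139, and neighbours among these 3 overlapped. Cxcl10 stood at 2.63 ± 0.193 with asparagine (SD, n = 2 each). Ccl7, Cxcl2, Cxcl3 and Ccl20 had means of at most 1.02 in either group. The order between genes depends on the exon lengths used. In GENCODE M21 the pooled exons of Cxcl1 (1875 bases), Cxcl2, Cxcl3 and Cxcl10 cover the whole gene, with no base left as intron. Those of Ccl2 (1138 bases) do not. Levels per kb may therefore be understated for Cxcl1, Cxcl2, Cxcl3 and Cxcl10, and the order of Cxcl1 and Ccl2 is not settled by this scale.

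The summed level of the 10 transcripts was 190 and 159 CPM without asparagine, against 87.7 and 93.1 CPM with it. The 4 Cxcr2 ligands took 53.4% and 45.0% of that sum without asparagine, against 30.5% and 28.2% with it. Cxcl1 alone took 36.1% and 27.1%, against 15.9% and 16.3%. Cx3cl1 took 7.35% and 8.62%, against 23.8% and 23.2%. Ccl2 held a like share in all libraries, 17.5% and 19.3% without asparagine, against 21.1% and 21.8% with it. The sum and these shares are in CPM, not scaled for exon length, so longer transcripts weigh more in them. By CPM the ratio of Ccl2 to Cx3cl1 was 2.38 and 2.24 without asparagine, against 0.885 and 0.940 with it. Per kb of exon, Ccl2 was above Cx3cl1 in every library, also with asparagine, at 16.2 and 17.85 against 5.305 and 5.50. Library A without asparagine had the largest sum and the largest Cxcl1 share, and library B lay on the same side of both libraries with asparagine in each of these measures.

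**Figure D3:**
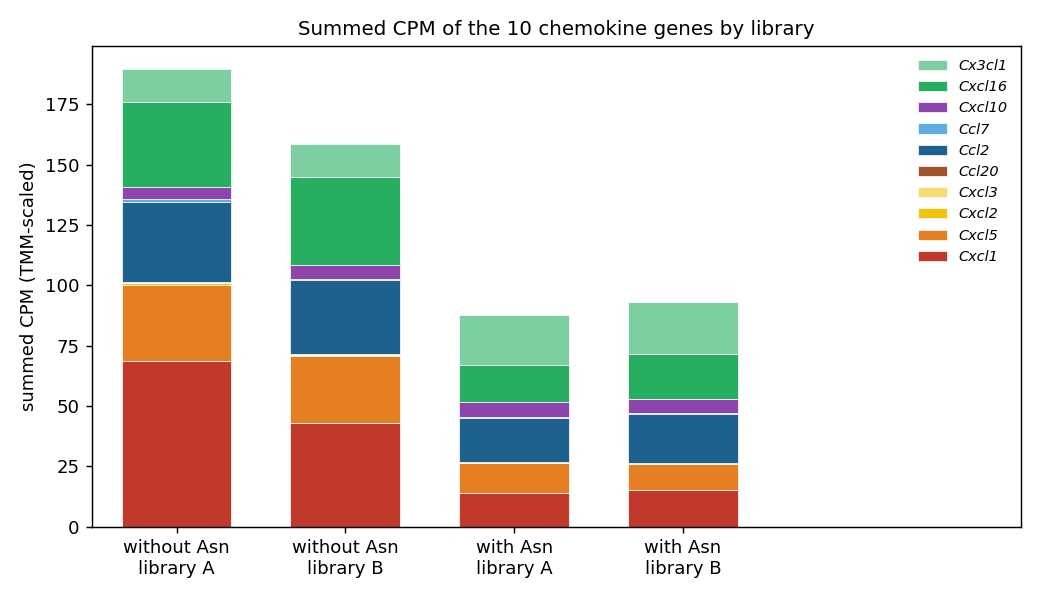
Summed level of the 10 chemokine transcripts (vertical axis, TMM-scaled CPM) in each of the 4 libraries, stacked by gene. The sums were 190 and 159 CPM without asparagine and 87.7 and 93.1 CPM with it. The Cxcl1 part at the base was 68.6 and 43.0 CPM without asparagine, against 13.95 and 15.2 CPM with it.

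The receptors for these ligands were mostly close to silent. Of 23 chemokine receptors 9 were tested, 0 were called higher and 1, Cxcr3, lower, with a list median of 0.37 on the log2 scale, against 0.01 over all genes. At an unadjusted p under 0.05 there were 1 higher and 1 lower, against 8.65% and 9.48% of all tested genes. DESeq2 and limma-voom each called 0 higher. Cxcr2, the receptor of the neutrophil group, had 10 and 8 reads without asparagine, against 4 and 16 reads with it. Cxcr6 had 38 and 22 reads, against 18 and 38, and Cx3cr1 had 13 and 18, against 10 and 15. None of these 3 was called (adjusted p = 0.840, 0.549 and 0.381). Ccr2 had 0 reads in both libraries without asparagine, against 0 and 2 reads with it, and Ccr6 had 0 reads in all 4.

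Cxcr3, the receptor of Cxcl10, fell to 2.29 and 2.06 CPM without asparagine, against 5.84 and 6.74 CPM with it. The groups were well apart, at 42 and 46 reads against 139 and 202. The log2 fold change was -1.54 ± 0.21 (SE, edgeR adjusted p = 0.0210), and -1.62 with library A of the asparagine-free cells left out. The call was lost without library A with asparagine (-1.64, adjusted p = 0.0617) and without library B with asparagine (-1.43, adjusted p = 0.163). Pan-leukocyte markers moved in the same direction in sum, at 12.4 and 14.1 CPM without asparagine, against 39.0 and 37.8 CPM with it. Nearly all of that was the integrin gene Itgb2, at 11.6 and 13.4 CPM, against 38.5 and 37.1 CPM. Cd52 was at 0 in every library, Ptprc (CD45) had 5 and 4 reads, against 4 and 14, and of 9 markers of T, NK and B cells 4, Cd3e among them, were at 0. Fibroblast markers also had a lower sum, 18.5 and 23.3 CPM without asparagine, against 43.4 and 41.3 CPM with it, nearly all of it Pdgfra.

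Few other chemokine ligands were read at a level that could be tested. Of 27 on the list, 26 were in the table, Cxcl15 being absent from it, and 3 were tested. Of these, 0 were called in either direction (edgeR), 0 at an unadjusted p under 0.05 and 0 by DESeq2 or limma-voom. The smallest p was that of Ppbp (log2 fold change 1.01 ± 0.43 SE, adjusted p = 0.276). Ccl5, another attractant of monocytes and T cells, had 4.20 and 2.77 CPM without asparagine, against 2.73 and 3.64 CPM with it. Ccl25, chosen for its level after the values were seen, stood higher than these, at 10.7 and 6.71 CPM, against 8.70 and 8.01 CPM, and its groups overlapped. The median of the 3 was 0.11.

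Among inducing cytokines, their receptors and adaptors, Il1a was the one called gene. Il1a, which encodes interleukin-1 alpha, had 4.31 and 3.76 CPM without asparagine, against 0.630 and 0.701 CPM with it, and rose 5.98-fold (log2 fold change 2.58 ± 0.27 SE, adjusted p = 0.00831). It was called with each of the 4 libraries left out, at 2.48 without the asparagine-free library A. Of its exon bases, 222 overlap exons of Gm14023 on the other strand. Other inducers were hardly read: Tnf had 6 and 9 reads without asparagine, against 8 and 10 with it, and Il1b had 9 and 5 reads, against 0 and 4. Of 20 tested genes on this list 7 lay above 0 and 13 below, against 51.4% and 48.6% of all tested genes. The median was -0.11 and 0 were called lower. At an unadjusted p under 0.05 there were 3 higher and 4 lower, against 8.65% and 9.48% of all tested genes. DESeq2 called 1 lower, against 271 of all 12843 genes, and limma-voom 0. The receptor Il1r1 had 35.5 and 38.4 CPM without asparagine, against 51.8 and 48.5 CPM with it, for a log2 fold change of -0.44 (edgeR adjusted p = 0.116). With library A of the asparagine-free cells left out, 3 genes were called higher and 4 lower, against 6.94% and 8.70% of all genes in that fit. With library B of these cells left out 2 were called higher and 7 lower, against 18.9% and 21.6% of all genes.

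No gene of the NF-kB list was called with the low-count filter used for the main test, the 4 libraries and no block. The list was not counted under the other filters. Of 17 subunits, kinases and inhibitors tested, 15 lay above 0 and 2 below, against 51.4% and 48.6% of all tested genes, and the median was 0.20, against 0.01 over all genes. None passed the edgeR test, DESeq2 or limma-voom, while 6 were higher and 0 lower at an unadjusted p under 0.05, against 8.65% and 9.48% of all tested genes. The smallest p was that of Nfkb2, the p100 subunit gene, with 46.3 and 48.1 CPM without asparagine, against 32.8 and 36.8 CPM with it, for a log2 fold change of 0.44 ± 0.11 SE (edgeR adjusted p = 0.126). Nfkbia, the NF-kB inhibitor gene and a target of NF-kB, was singled out after its values were seen, and had 35.0 and 25.05 CPM, against 18.3 and 20.3 CPM (log2 fold change 0.63, adjusted p = 0.144). With library A of the asparagine-free cells left out 5 genes were called higher, against 6.94% of all genes in that fit. With library B of these cells left out 8 were called higher and 1 lower, against 18.9% and 21.6% of all genes.

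Factors that control the decay of chemokine mRNA included 1 call. Zfp36l1, which encodes an RNA-binding protein that promotes decay of AU-rich mRNAs, had 149 and 128 CPM without asparagine, against 74.6 and 84.6 CPM with it. It rose 1.74-fold (log2 fold change 0.80 ± 0.12 SE, adjusted p = 0.0321), with a log2 fold change of 0.68 when library A of the asparagine-free cells was left out. The call was lost without library A with asparagine (0.71, adjusted p = 0.454) and without library B with asparagine (0.89, adjusted p = 0.201). In GENCODE M21, 1672 of its 2990 exon bases overlap exons of Gm26669 on the other strand. Of the 11 genes tested 8 lay above 0, against 51.4% of all tested genes, with a median of 0.10 and 0 called lower. At an unadjusted p under 0.05 there were 2 higher and 0 lower, against 8.65% and 9.48% of all tested genes. DESeq2 and limma-voom each called 1 higher, against 193 and 98 of all 12843 genes, and 0 lower. With library B of the asparagine-free cells left out 5 were called higher and 2 lower, against 18.9% and 21.6% of all genes in that fit. With library A of these cells left out 2 were called higher, against 6.94% of all genes.

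The proteases that release Cxcl16 and Cx3cl1, with their regulators, showed no call in the main edgeR test, with the 4 libraries and no block. Of 9 tested 6 lay below 0, against 48.6% of all tested genes, with a median of -0.15. At an unadjusted p under 0.05 there were 1 higher and 3 lower, against 8.65% and 9.48% of all tested genes. DESeq2 called 1 lower, against 271 of all 12843 genes, and limma-voom 0. Tspan15, a tetraspanin that partners Adam10, had 2.67 and 3.44 CPM without asparagine, against 5.80 and 7.24 CPM with it, for a log2 fold change of -1.09 ± 0.22 SE (edgeR adjusted p = 0.0720). The proteases themselves, given after their values were seen, differed less. Adam10 had 85.0 and 97.0 CPM, against 119 and 109 CPM (log2 fold change -0.32, adjusted p = 0.211), and Adam17 had 163 and 194 CPM, against 218 and 220 CPM (-0.30, adjusted p = 0.250). With library A of the asparagine-free cells left out 3 genes were called lower, against 8.70% of all genes in that fit. With library B of these cells left out 4 were called lower and 1 higher, against 21.6% and 18.9% of all genes.

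**Figure D4:**
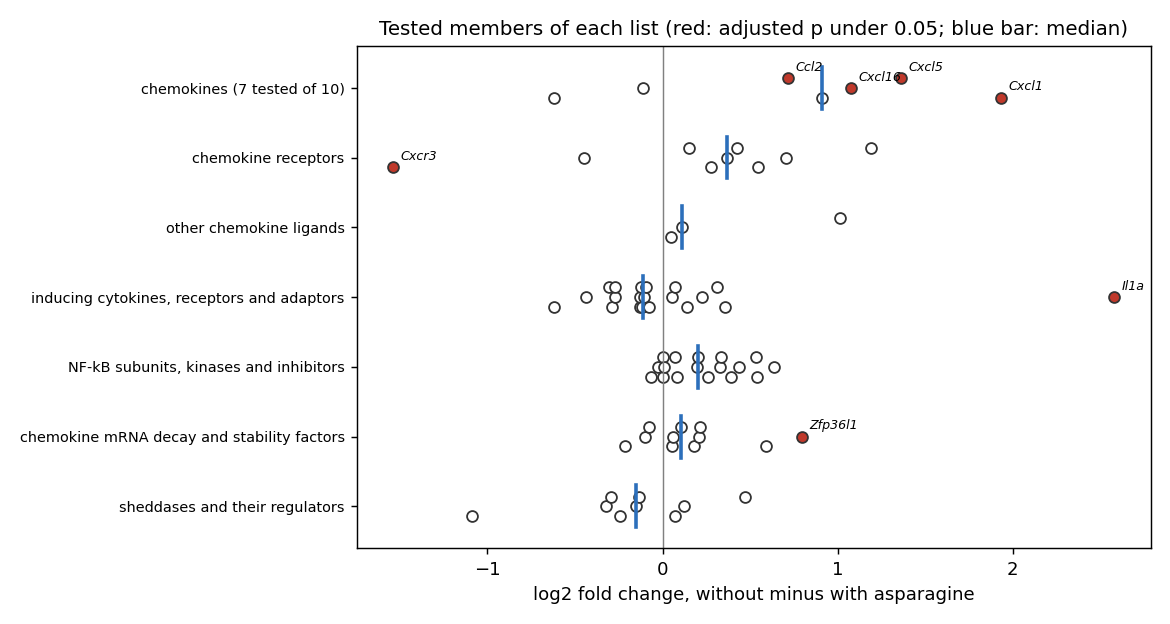
Log2 fold change, without minus with asparagine (horizontal axis), of each tested gene of the chemokine set and of 6 related lists (rows). Red points passed the edgeR test at an adjusted p of 0.05, open points did not, and blue bars are list medians. The called genes are Cxcl1, Cxcl5, Cxcl16 and Ccl2 among the chemokines, Cxcr3, Il1a and Zfp36l1.

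Genes other than the 10 members were ranked by the nearness of their profiles to that of Cxcl1. Nearness was the Euclidean distance between centred log2 CPM profiles over the 4 libraries, among 9363 tested genes that averaged 5 CPM or more. The members and genes with Gm or Rik names were left out of this ranking, and the distances of members are given apart. The nearest were Plk2 (distance 0.30), Camk1g (0.31), Gadd45b (0.31), Macc1 (0.43) and Ctgf (0.49), against a median distance of 1.98. Plk2, a stress-induced polo-like kinase gene, had 126 and 106 CPM without asparagine, against 30.3 and 33.5 CPM with it. Gadd45b, a stress sensor gene, had 10.4 and 7.34 CPM, against 2.82 and 2.67 CPM. Of the members, Cxcl5 was nearest to Cxcl1 (0.69), followed by Cxcl16 (0.98), and Cx3cl1 was farthest (2.55). With only 4 libraries, likeness of this kind is a description.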

How the data were processed

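Total RNA of 4 libraries was purified with a Qiagen kit and amplified with NuGEN Ovation RNAseq V2, per the labels' protocols. Bowtie2, HTSeq and build mm10 are named in the submitters' processing notes; their versions, settings, gene annotation and use of strand are not stated in any source used here. The table the authors deposited holds raw read counts for each gene symbol, and its 5 HTSeq summary rows (60.1% to 70.0% of reads) entered neither library sizes nor tests.

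Genes were kept by filterByExpr (minimum count 10, minimum total 15, here at least 0.431 CPM in 2 libraries) and tested with edgeR 4.0.16 (quasi-likelihood, TMM, no block), with Benjamini-Hochberg adjustment over all genes. Fold changes are without minus with asparagine, and the SE is the log2 fold change divided by the square root of F. Alternatives used DESeq2 1.42.0, limma 3.58.1 (voom), other scalings and filters, the letter as a block, and each library left out, its partner then being assumed to vary like the other group. GENCODE M21 gave coordinates, exon lengths and overlaps.

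Nothing in the labels says whether A and B were separate cultures. The p-values then reflect only the spread between these libraries, which may be technical. Members and lists were chosen with earlier results of these data known. Besides the members and the receptors Cxcr2, Cxcr3, Cxcr6, Ccr2, Ccr6 and Cx3cr1, the genes named are the called members of each list, or that with the smallest p, and the 5 genes nearest to Cxcl1. Others are illustrations.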

Additional observations from a re-analysis of the deposited data

How the results depend on the processing

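The log2 fold change of each of the 7 tested chemokines kept its direction under every alternative that could test it. The number of chemokines called higher was 4 under every scaling, tool and filter and with the replicate block, and ranged from 1 to 5 with each library left out. The number called lower was 0, and 1 with DESeq2, 1 with no filter, 1 with the letter as a replicate block, and 0 to 1 with each library left out; the gene was Cx3cl1 in each case. Over all genes, 99 were called higher and 138 lower. These counts were 193 and 271 with DESeq2, 615 and 719 with no filter, and 344 and 472 with the replicate block, where 3 genes of the NF-kB list were called higher, against 0 without it. With each library left out they ranged from 24 to 2502 higher and from 24 to 2861 lower, the low counts without a library with asparagine and the high ones without a library without it. With a library left out, the spread was taken from the intact pair alone. The chi-square per degree of freedom of library A against B was 3.89 with asparagine and 34.8 without it. The cause of these shifts was not tested. Letters were not taken to pair libraries, since there are only 2 pairs and nothing in the labels says so; the differences of library A from B correlated at 0.123 between the groups. Cxcl2, Cxcl3, Ccl7 and Ccl20 had at most 20 reads in any library.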
